A study of Mus musculus with 4 samples.

Results

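MAP kinases and dual-specificity phosphatases are the enzymes that switch the MAP kinase cascades on and off, and their mRNA levels were compared in mouse heart muscle cells after pressure overload. The genes were taken by symbol, as all rows named Mapk, Map2k, Map3k or Dusp followed by a number. This gave 68 of 22322 genes. Of these, 38 were kinases (13 MAP kinases, 7 MAP2 kinases and 18 MAP3 kinases) and 24 were dual-specificity phosphatases. Another 6 matched by symbol only, being scaffolds or other proteins that are not kinases of these families (Mapk8ip1, Mapk8ip2, Mapk8ip3, Mapk1ip1, Mapk1ip1l and Map3k7cl). RNA was sequenced from cardiomyocytes of 2 sham-operated mice and 2 mice after transverse aortic constriction (TAC), a surgical narrowing of the aortic arch against which the left ventricle must pump. The study's methods state that the mice were male, were 2 months old at surgery and were examined 14 weeks later, when the TAC hearts were failing. Elsewhere the methods give 14 weeks as the age at which cells were isolated, so the age at harvest is uncertain. Cells were released by Langendorff perfusion of the heart, and each library came from part of the myocytes of 1 heart. A strain name was not found in the sources used here, and the groups are described as differing by the operation, which was done under ketamine and xylazine.

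In a MAP kinase cascade a MAP3 kinase phosphorylates a MAP2 kinase, which in turn phosphorylates a MAP kinase on a threonine and a nearby tyrosine. Well-known cascades end in the ERK kinases, in the p38 kinases, in the JNK kinases and in ERK5, and in the heart they take part in hypertrophy, stress responses and cell survival. The typical dual-specificity phosphatases, also called MAP kinase phosphatases, remove both phosphates and so end the signal. Several of them are themselves switched on at the transcript level by the kinases that they inactivate. The atypical dual-specificity phosphatases lack the kinase-binding domain and act on varied substrates, some of them outside these cascades.

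The libraries held 24237777 to 32118323 counts, and 12499 genes had enough counts to be tested. The library of TAC 1 stood apart, with 47.42% of its counts from mitochondrial genes against 39.84% to 40.85% in the other 3. Some of the results that changed without TAC 1 are given with and without it. Levels are given as CPM, the count of a gene relative to its library after TMM scaling (a factor per library that centres most genes), or as FPKM, which is also divided by transcript length and carries no TMM factor. The 15 cardiomyocyte markers summed to 79100 and 88240 CPM in sham and to 85160 and 81930 CPM in TAC. Markers of the labelled cell type were thus abundant in all 4 libraries, with sums that overlapped between groups. Of all genes tested, 5.01% were called by edgeR at an adjusted p under 0.05. Calls higher in TAC made up 2.58% and calls lower in TAC 2.43%. With 2 libraries per group an exact permutation test of 1 gene cannot go below p = 0.333, so each p rests on a spread that edgeR pools over genes. TAC libraries lay wholly above or below the sham libraries for 60.1% of all genes tested.

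Among kinases 1 of 34 tested genes (2.94%) was called, and among phosphatases 3 of 17 (17.6%), beside 5.01% of all genes tested. The called kinase was Mapk4, which was higher in TAC. The called phosphatases were Dusp8 and Dusp16, which were higher, and Dusp1, which was lower. All 3 belong to the typical class, in which 3 of 8 tested genes (37.5%) were called against 0 of 9 in the atypical class. None of the 7 MAP2 kinases, 16 tested MAP3 kinases or 5 tested genes matched by symbol only was called, with 3, 3 and 1 of them at an unadjusted edgeR p under 0.05, beside 27.5% of all genes tested. The cut-off used in the study (p under 0.05, fold change over 2, FPKM over 2), taken here with the unadjusted p, was passed by Mapk4, Dusp1 and Dusp8, while 0.824% of all genes tested passed it. Another 12 genes had too few counts to be tested, namely Dusp2, Dusp9, Dusp13, Dusp14, Dusp15, Dusp21, Dusp26, Map3k9, Map3k19, Mapk13, Mapk15 and Mapk8ip2. None of these had more than 15 counts in a library, and Dusp15, Dusp21 and Mapk15 had 0 in all 4.

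**Figure D1:**
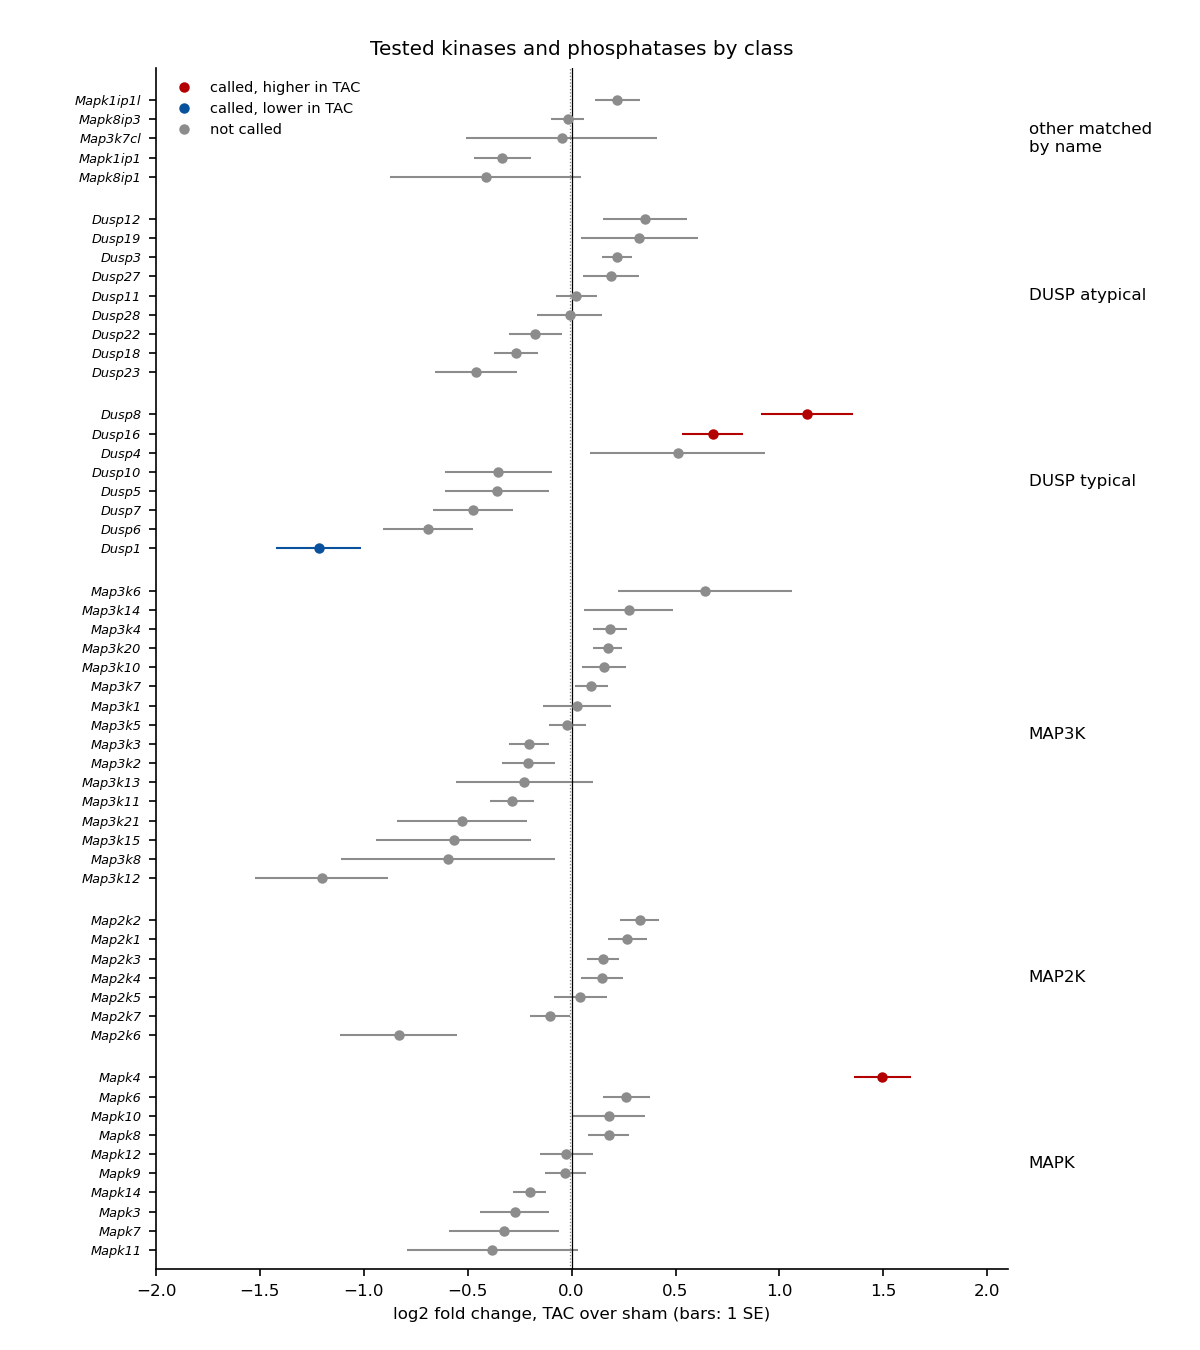
Log2 fold change of TAC over sham for the tested genes that are described here, by class, as the edgeR estimate (points) with 1 SE (bars), n = 2 libraries per group. Red and blue points mark genes called higher or lower at an adjusted p under 0.05, and only Mapk4, Dusp8, Dusp16 and Dusp1 are coloured. The dotted line is the median of all genes tested.

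The promoters of the 3 called phosphatases are shown because these genes were called in opposite directions, and both strands were searched for the cyclic AMP response element, which is bound by the CREB and ATF families. Each sequence is the 250 bases before the transcript start in RefSeq on GRCm38.p6, on the minus strand. The Dusp1 stretch lies at chr17:26508473-26508722, that of Dusp8 at chr7:142095285-142095534 and that of Dusp16 at chr6:134792629-134792878. For Dusp1 and Dusp8 the gene span in the GENCODE annotation, given below, begins further upstream, so these stretches lie inside it. Capitals mark TGACG or its reverse complement CGTCA, which together make the full element TGACGTCA where they overlap.
Dusp1: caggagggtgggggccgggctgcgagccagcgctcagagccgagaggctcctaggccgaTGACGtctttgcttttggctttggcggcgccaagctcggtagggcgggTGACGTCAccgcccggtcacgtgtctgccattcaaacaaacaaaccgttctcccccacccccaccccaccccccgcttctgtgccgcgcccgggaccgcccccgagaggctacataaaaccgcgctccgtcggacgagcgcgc
Dusp8: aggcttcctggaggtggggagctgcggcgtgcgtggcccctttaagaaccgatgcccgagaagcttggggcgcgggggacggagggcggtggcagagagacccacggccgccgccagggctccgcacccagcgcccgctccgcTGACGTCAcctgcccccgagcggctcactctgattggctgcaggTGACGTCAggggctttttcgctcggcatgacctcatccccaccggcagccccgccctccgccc
Dusp16: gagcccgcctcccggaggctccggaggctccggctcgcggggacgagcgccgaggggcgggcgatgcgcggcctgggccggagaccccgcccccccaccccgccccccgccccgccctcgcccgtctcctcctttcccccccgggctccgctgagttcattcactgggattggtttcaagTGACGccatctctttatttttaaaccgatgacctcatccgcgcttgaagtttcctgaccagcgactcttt

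The full element TGACGTCA occurred once in the Dusp1 stretch, 143 to 136 bases before the start. It occurred at 2 places in the Dusp8 stretch, 107 to 100 and 63 to 56 bases before the start, and at none in Dusp16. RefSeq held promoters for 51 of the 68 genes, some with more than one. The full element was present in 508 of 32851 RefSeq promoters, each searched over the same 250 bases before the start (1.55%), in 2 of 8 promoters of typical phosphatases and in 1 of 41 kinase promoters. The shorter TGACG on either strand, which the full element contains, was in 17.8% of all promoters. It was in 4 of the 8 typical phosphatase promoters, those of Dusp1, Dusp5, Dusp8 and Dusp16. The AP-1 element TGANTCA, the site of Fos and Jun proteins, was in 6.75% of all promoters and in 0 of these 8. A CArG box, the site of serum response factor, was in 1.47% of all promoters and, of these 8, in that of Dusp5.

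Dusp1 (ENSMUSG00000024190, mm10 chr17:26505590-26562128) encodes MKP-1, a nuclear phosphatase of p38 and JNK that is known as an immediate early gene. Its level was 102.8 and 67.04 CPM in the sham libraries and 31.85 and 41.35 CPM in the TAC libraries. Both TAC libraries lay below both sham libraries, and the sham libraries differed from each other by more than the TAC libraries did. The log2 fold change was -1.22 ± 0.20 (SE), or 2.32-fold lower in TAC, with an edgeR adjusted p of 0.0242. It stayed called under all 11 alternatives, between -1.49 and -0.87. As FPKM, Dusp1 ranked first among phosphatases in both sham libraries and second to Dusp3 in both TAC libraries. In bulk RNA, fewer cells of a type and less RNA per cell cannot be told apart.

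Other transcripts were lower along with Dusp1. Of 21 tested immediate early genes, which cells transcribe within minutes of a stimulus, 9 were called and all 9 were lower in TAC, beside 2.43% of all genes called lower. Without TAC 1 the call was lost for Fosb, whose log2 fold change was -2.473 against -2.51 with all libraries, and the others stayed called. Their summed level over the whole list was 1166 and 701.8 CPM in sham and 360.7 and 312.7 CPM in TAC, with sham 1 highest as for Dusp1. Fos, a subunit of AP-1, was at 127.4 and 64.33 CPM in sham and at 14.13 and 16.19 CPM in TAC, which is -2.66 ± 0.30 as log2 fold change (edgeR adjusted p = 0.00641). Egr1, a zinc finger factor, was at 172.2 and 85.98 against 19.19 and 23.56 CPM, which is -2.60 ± 0.30 (edgeR adjusted p = 0.00747). The others called were Fosb, Ier2, Jun, Junb, Btg2, Klf6 and Zfp36. The study named Fos, Jun, Junb, Klf6 and Egr1 from these samples, so their direction is not independent evidence.

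All 56 tested markers of 4 other cell types had negative log2 fold changes, as 6354 of the 12499 genes tested did. Of the markers 9 of 56 were called lower, beside 2.43% of all genes. The 15 endothelial markers summed to 790.6 and 631.1 CPM in sham and to 380.9 and 531.4 CPM in TAC, with 3 of 15 called lower. The 15 fibroblast markers summed to 336.3 and 243.4 against 144.3 and 194.7 CPM, with 4 of 15 called lower. The 12 markers of mural cells, which wrap small vessels, summed to 766.4 and 804.3 against 443.8 and 585 CPM, with 2 of 12 called lower. The 15 macrophage markers summed to 145.7 and 73.81 against 40.49 and 74.84 CPM, with overlapping groups, 0 of 14 tested called and 6 at an unadjusted edgeR p under 0.05, beside 27.5% of all genes. No marker was at 0 in any library, and the cardiomyocyte sums also overlapped between groups. Of the 15 cardiomyocyte markers 1 was called, Tcap, a protein of the Z-disc that was lower (-0.91 ± 0.13, edgeR adjusted p = 0.0148), and 6 had an unadjusted edgeR p under 0.05. The part of these cells in the lower level of Dusp1 was not tested.

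**Figure D2:**
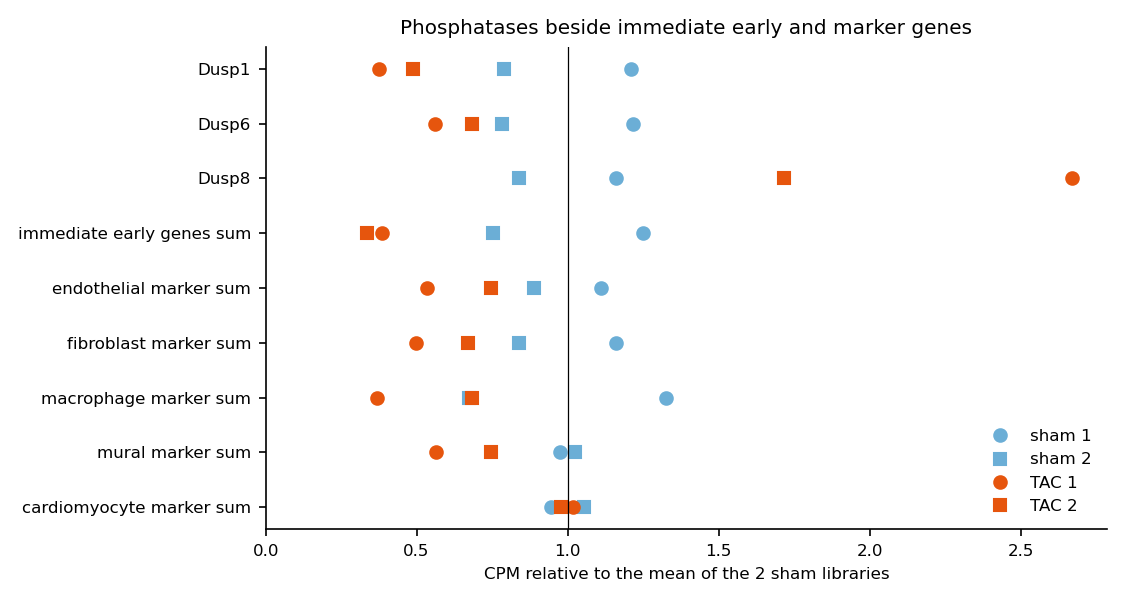
Level in each library relative to the mean of the 2 sham libraries, in CPM, for Dusp1, Dusp6 and Dusp8 and for summed marker lists. Circles are replicate 1 and squares replicate 2, sham in blue and TAC in orange. Dusp1 lies at 0.375 and 0.487 in TAC beside 0.386 and 0.335 for immediate early genes, while Dusp8 lies at 2.67 and 1.72 and the cardiomyocyte markers stay near 1.

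Dusp8 and Dusp16 form, with Dusp10, the subgroup of MAP kinase phosphatases that prefers JNK and p38 over ERK. Dusp8 (ENSMUSG00000037887, mm10 chr7:142079490-142095843) was at 25.91 and 18.77 CPM in sham and at 59.64 and 38.32 CPM in TAC. Both TAC libraries were above both sham libraries, and replicate 1 was the higher in each group. The log2 fold change was 1.13 ± 0.22, or 2.19-fold higher in TAC, with an edgeR adjusted p of 0.0357. Without TAC 1 the value was 0.78 and the call was lost (edgeR adjusted p = 0.0559), as it was with totals without mitochondrial genes, where the value stayed at 1.03 (edgeR adjusted p = 0.0536).

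Dusp16 (ENSMUSG00000030203, mm10 chr6:134715468-134792625), which encodes MKP-7, was at 15.99 and 18.31 CPM in sham and at 31.1 and 23.68 CPM in TAC. The groups did not overlap, and TAC 1 was again the highest library. Its log2 fold change was 0.68 ± 0.15, or 1.6-fold higher, with an edgeR adjusted p of 0.0467. The call was lost without TAC 1 (0.47, edgeR adjusted p = 0.134) and without sham 1 (0.58, edgeR adjusted p = 0.0576). It was also lost with scaling by total counts (0.48, edgeR adjusted p = 0.0826) and by totals without mitochondrial genes (0.58, edgeR adjusted p = 0.0613). The third of the subgroup, Dusp10 or MKP-5, was at 7.17 and 5.28 CPM in sham and at 3.80 and 6.01 CPM in TAC, and its groups overlapped (edgeR adjusted p = 0.4).

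Dusp6 and Dusp7 encode cytoplasmic phosphatases of ERK. Dusp6, or MKP-3, was at 16.59 and 10.7 CPM in sham and at 7.64 and 9.32 CPM in TAC, a log2 fold change of -0.69 ± 0.22 that was not called (edgeR adjusted p = 0.0998). Its sham libraries lay further apart than its TAC libraries, and leaving them out in turn moved the value from -0.34 without sham 1 to -0.97 without sham 2, where it was called (edgeR adjusted p = 0.00986). Dusp7 was at 24.52 and 28.64 CPM in sham and at 15.03 and 23.31 CPM in TAC, a difference of -0.48 ± 0.19 on the log2 scale (edgeR adjusted p = 0.166). It was called without TAC 2 (-0.82, edgeR adjusted p = 0.00941), while without TAC 1 it was -0.19 (edgeR adjusted p = 0.513). For both genes the groups did not overlap.

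The remaining typical phosphatases were low, with no FPKM above 1.95. Most are nuclear, as Dusp1 is. Dusp5, which acts on ERK, was at 4.39 and 3.41 CPM in sham and at 2.55 and 3.56 CPM in TAC, with overlapping groups (edgeR adjusted p = 0.381). Dusp4, or MKP-2, was at 0.885 and 0.521 CPM in sham and at 1.11 and 0.90 CPM in TAC, from 15 to 31 counts per library (edgeR adjusted p = 0.459). Dusp2, a phosphatase known from activated lymphocytes, had 15 and 2 counts in sham and 6 and 0 in TAC. Dusp9, a cytoplasmic ERK phosphatase known from placenta, had 2 counts in sham 2 and 0 in the other 3 libraries. At this depth no difference was detectable for Dusp2 and Dusp9.

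**Figure D3:**
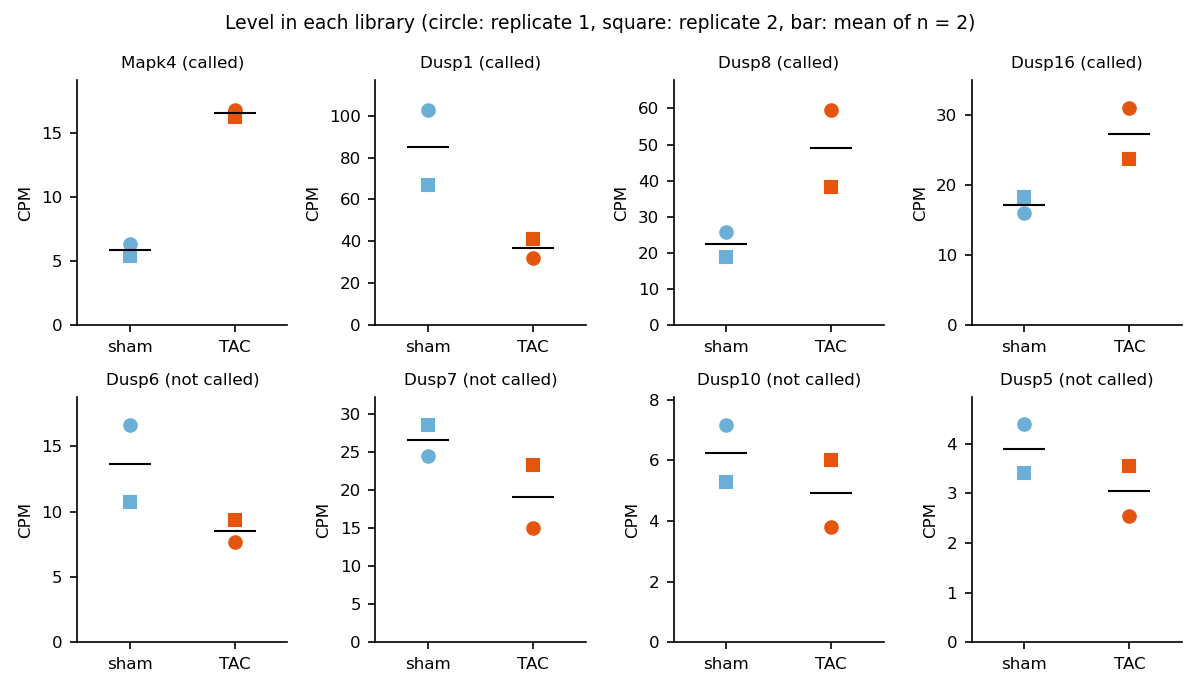
CPM in each library for Mapk4 and 7 typical phosphatases, on axes that start at 0. Circles are replicate 1, squares are replicate 2 and bars are the mean of n = 2. The groups are apart for the 4 called genes and for Dusp6 and Dusp7, while they overlap for Dusp10 and Dusp5.

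The make-up of the MAP kinase phosphatase mRNA was described as the share of each gene in the summed FPKM of the 10 typical members, a value that scaling of the libraries cannot change. Dusp1 took 65.7% and 59.0% of the sum in the sham libraries and 36.0% and 44.5% in the TAC libraries. The share of Dusp8 was 6.81% and 6.72% in sham and 27.3% and 16.1% in TAC. That of Dusp16 was 3.96% and 6.27% in sham and 13.8% and 9.72% in TAC. Dusp1 thus remained the most abundant typical phosphatase in each library, with Dusp8 behind it in both TAC libraries. The shares of Dusp6 overlapped between groups, at 7.64% and 6.59% in sham and 6.02% and 6.80% in TAC. Within each group the shares of Dusp1 differed by less than the groups did.

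**Figure D4:**
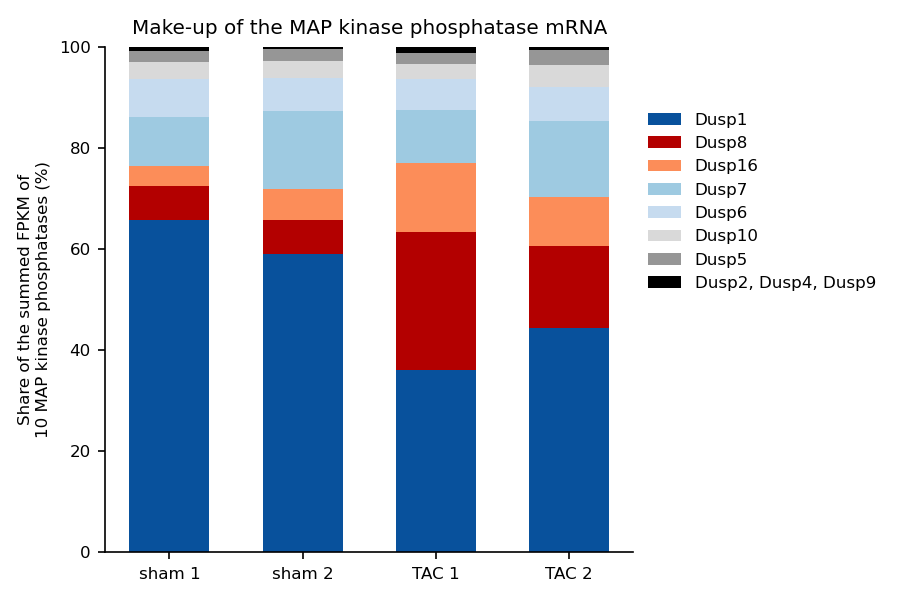
Share of each gene in the summed FPKM of the 10 typical MAP kinase phosphatases, in percent, as 1 stacked bar per library. Dusp1 (blue) falls from 65.7% and 59.0% in sham to 36.0% and 44.5% in TAC, while Dusp8 (red) and Dusp16 (orange) take larger shares in both TAC libraries.

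None of the atypical phosphatases was called. Their 9 tested genes had log2 fold changes from -0.46 (Dusp23) to 0.36 (Dusp12), with 3 at an unadjusted edgeR p under 0.05, as 27.5% of all genes were. Dusp3, or VHR, which acts on ERK and JNK, was at 65.45 and 62.59 CPM in sham and at 73.85 and 75.29 CPM in TAC (edgeR adjusted p = 0.111). It was the most abundant phosphatase as FPKM in both TAC libraries, at 20.78 and 22.87, where Dusp1 stood at 14.24 and 22.26. Dusp27, which lacks catalytic activity and is known from muscle, came next after Dusp1 and Dusp3 by FPKM in every library, and its CPM overlapped between groups, at 41.84 and 48.55 CPM in sham and 58.1 and 44.86 CPM in TAC. Of the other named members, Dusp23 was at 4.52 and 5.56 against 3.52 and 3.80 CPM (edgeR adjusted p = 0.18). Dusp12 was at 3.29 and 3.13 against 3.80 and 4.42 CPM, and Dusp19 at 1.61 and 1.88 against 2.44 and 1.92 CPM (edgeR adjusted p = 0.293 and 0.479). Of the 2743 exon bases of Dusp12, 1365 are shared with genes on the opposite strand, so without strand its reads cannot be told from theirs.

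Mapk4 (ENSMUSG00000024558, mm10 chr18:73928486-74065359) encodes ERK4, an atypical MAP kinase that is not known to be activated by a MAP2 kinase and that binds the kinase MK5. It was at 6.29 and 5.39 CPM in sham and at 16.79 and 16.19 CPM in TAC. The libraries of each group lay close together and the groups far apart. The log2 fold change was 1.496 ± 0.135, or 2.82-fold higher, with an edgeR adjusted p of 0.00445, and it was called under all 11 alternatives (1.304 to 1.614). As FPKM it stood at 1.5 and 1.22 in sham and at 3.17 and 3.56 in TAC. An opposite-strand gene, Gm9925, shares 258 of its 5400 exon bases and had 0 to 4 counts per library. Mapk6, which encodes the related ERK3, was at 18.36 and 18.49 CPM in sham and at 23.92 and 20.24 CPM in TAC, a log2 fold change of 0.26 ± 0.11 that was not called (edgeR adjusted p = 0.183).

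None of the conventional MAP kinases described here was called. Mapk3 (ERK1) was at 21.17 and 18.38 CPM in sham and at 13.66 and 19.14 CPM in TAC, where TAC 1 alone was low (-0.27 ± 0.17). Without TAC 1 the value was -0.05 (edgeR adjusted p = 0.896) and without TAC 2 it was -0.53 (edgeR adjusted p = 0.0537). Among p38 kinases, Mapk14 (p38 alpha) was at 58.81 and 59.01 CPM in sham and at 48.88 and 53.57 CPM in TAC, groups that did not overlap (-0.20 ± 0.08, edgeR adjusted p = 0.161). The other p38 genes overlapped between groups, with Mapk12 (p38 gamma) at 10.19 to 11.16 CPM and Mapk11 (p38 beta) at 0.646 to 1.08 CPM over the 4 libraries. Mapk13 (p38 delta) had 3 counts in TAC 2 and 0 elsewhere.

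The JNK kinases had log2 fold changes of 0.18 ± 0.10 for Mapk8 (JNK1), -0.03 ± 0.10 for Mapk9 (JNK2) and 0.18 ± 0.17 for Mapk10 (JNK3). The value of Mapk10 rested on TAC 1, being -0.07 without it and 0.39 without TAC 2. Mapk8 was at 21.65 and 20.47 CPM in sham and at 24.78 and 22.9 CPM in TAC, without overlap, while Mapk9 and Mapk10 overlapped. Mapk7, which encodes ERK5, was at 2.21 and 2.75 CPM in sham and at 1.83 and 2.13 CPM in TAC (-0.33 ± 0.27). The lowest edgeR adjusted p among the conventional MAP kinases described here was that of Mapk14.

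The MAP2 kinases of the ERK branch were slightly above sham in both TAC libraries. Map2k2 (MEK2) was at 47.75 and 41.74 CPM in sham and at 57.89 and 54.39 CPM in TAC (0.33 ± 0.09, edgeR adjusted p = 0.0821). Map2k1 (MEK1) was at 24.27 and 25.33 CPM in sham and at 31.24 and 28.46 CPM in TAC (0.27 ± 0.09, edgeR adjusted p = 0.124). Neither was called. Over the 11 alternatives Map2k2 ranged from 0.13 to 0.43 and Map2k1 from 0.076 to 0.336, and Map2k2 was called in 2 of them.

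Neither MAP2 kinase of p38 was called. Map2k6 (MKK6) was at 2.15 and 2.29 CPM in sham and at 1.18 and 1.31 CPM in TAC, a log2 fold change of -0.83 ± 0.28 from 32 to 68 counts per library (edgeR adjusted p = 0.115). Map2k3 (MKK3) was at 48.95 and 49.45 CPM in sham and at 56.34 and 52.92 CPM in TAC (0.15 ± 0.08, edgeR adjusted p = 0.249). By FPKM Map2k3 was the more abundant of the pair in every library, at 22.25 to 24.45 against 0.50 to 1.15. The JNK branch kinases Map2k4 (MKK4) and Map2k7 (MKK7) and the ERK5 branch kinase Map2k5 (MEK5) had log2 fold changes of 0.15 ± 0.10, -0.11 ± 0.10 and 0.04 ± 0.13. With each library left out in turn they ranged from 0.03 to 0.276, from -0.202 to 0.003 and from -0.065 to 0.14.

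MAP3 kinases receive signals from receptors, small GTPases and stress. Map3k20 (ZAK), which is known to respond to stalled ribosomes, had the highest FPKM of them in every library and was at 173.5 and 179.5 CPM in sham and at 200.1 and 197.8 CPM in TAC, and was not called (0.17 ± 0.07, edgeR adjusted p = 0.162). The lowest value of the class was that of Map3k12 (DLK), at 3.48 and 2.36 CPM in sham and at 1.08 and 1.47 CPM in TAC (-1.20 ± 0.32, edgeR adjusted p = 0.0714). The value of Map3k12 was -0.894 without sham 1 and -1.446 without sham 2. Its counts are not whole, and 1573 of its 8989 exon bases are shared with Pcbp2 on the opposite strand, which had 2784.63 to 3299.81 counts per library. The sources used here do not say how such fragments were divided.

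Other MAP3 kinases at the ends of the range were thinly counted. Map3k8 (TPL2) was at 1.68 CPM in sham 1 and at 0.626 to 0.818 CPM in the other 3 libraries, and Map3k6 (ASK2) was at 1.296 CPM in sham 1 and at 3.61 to 3.84 CPM in the others. In both genes sham 1 was the library apart. Without sham 2 Map3k6 was called (1.56, edgeR adjusted p = 0.0234), but without sham 1 it was at 0.075 (edgeR adjusted p = 0.924). The value of Map3k8 turned from -0.594 to 0.291 without sham 1. Map3k15 (ASK3), which shares exon bases with the highly counted Pdha1, had a log2 fold change of -0.57 ± 0.37. Its value was -0.155 without sham 2 and -0.89 without sham 1. Map3k21 (MLK4) had a log2 fold change of -0.53 ± 0.31 (-0.19 without TAC 1) and Map3k14 (NIK) of 0.27 ± 0.22. None of these was called with all 4 libraries. The other 9 tested MAP3 kinases, among them Map3k5 (ASK1) and Map3k7 (TAK1), had log2 fold changes between -0.29 (Map3k11) and 0.18 (Map3k4), and none was called. The 5 tested genes matched by symbol only lay between -0.41 (Mapk8ip1) and 0.22 (Mapk1ip1l).

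Compared as families, the median log2 fold change was 0.003 over the 34 tested kinases and -0.01 over the 17 tested phosphatases, against -0.008 over all genes tested. The difference of -0.013 between the families was smaller than its spread between replicates (SD 0.047). With total-count scaling the medians were -0.18 and -0.21, where all genes moved to -0.20, so relative to all genes the families stayed where they were. The median size of the differences was 0.208 for kinases, 0.355 for phosphatases and 0.594 for the 8 typical phosphatases, against 0.217 for all genes. Replicates also lay further apart in the phosphatases, by a median of 0.223 in sham and 0.284 in TAC, against 0.10 and 0.132 in the kinases. In the 8 typical phosphatases these gaps were 0.449 and 0.43, not far below the size of their differences. Groups did not overlap for 22 of 34 kinases (64.7%) and for 12 of 17 phosphatases (70.6%), beside the 60.1% of all genes.

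Summed over their genes, phosphatases stood at 44.8% and 40.1% of the kinase CPM in the sham libraries and at 38.5% and 37.4% in the TAC libraries. Scaling of the libraries does not change this ratio. Both TAC libraries lay below both sham libraries, but the sham libraries differed from each other by more than the nearest libraries of the groups. Without Dusp1, left out after its values were seen, the ratio was 33.3% and 32.8% in sham and 35.3% and 33.1% in TAC, and the order of the groups was lost. The kinase sum itself was 897.2 and 917.7 CPM in sham and 984.4 and 950.3 CPM in TAC, with TAC above sham. Scaled by total counts alone, without the TMM factor, it was 984.3 and 954 in sham and 854.6 and 958.7 in TAC, and the groups overlapped.

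The other genes of the pathway were counted from lists of textbook members. Upstream, 1 of 15 tested genes of the RAS and RAF list was called, beside 5.01% of all genes tested. This was Rras2, a RAS-related GTPase, at 42.98 and 41.91 CPM in sham and at 76.64 and 65.84 CPM in TAC (0.75 ± 0.09, edgeR adjusted p = 0.00896). None of 7 MAP4 kinases was called, and 2 of the 7 had an unadjusted edgeR p under 0.05, close to the 27.5% of all genes. Their median was -0.18, and 6 of the 7 had both TAC libraries below both sham libraries, beside 30.3% of all genes. Among inhibitors of RAS and RAF, such as the Sprouty and Spred genes, 0 of 12 were called and 7 had an unadjusted edgeR p under 0.05, beside 27.5% of all genes tested. The median of the inhibitors was -0.47, and 9 of the 12 had both TAC libraries below both sham libraries. The markers of endothelial cells, fibroblasts and mural cells had medians of -0.63, -0.82 and -0.86, and their part in the values of the inhibitors was not tested. One Spred gene rested on fewer than 1 CPM in every library.

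Downstream, 3 of 9 tested MAPK-activated kinases were called, beside 5.01% of all genes tested. Mapkapk2 (MK2), a substrate of p38, was at 228.5 and 230.2 CPM in sham and at 296.2 and 311.3 CPM in TAC (0.41 ± 0.07, edgeR adjusted p = 0.0278). As FPKM, which carries no TMM factor, it was at 87.82 and 84.02 in sham and at 90.21 and 110.05 in TAC. Mknk2 (MNK2), which phosphorylates the translation factor eIF4E, was at 165.9 and 165.1 CPM in sham and at 282 and 244.4 CPM in TAC (0.67 ± 0.09, edgeR adjusted p = 0.0108). Rps6ka5 (MSK1), a nuclear kinase that acts on CREB and histone H3, was lower, at 8.82 and 10.25 CPM in sham and at 5.88 and 5.32 CPM in TAC (-0.77 ± 0.16, edgeR adjusted p = 0.0407). Without TAC 1 the call was lost for Rps6ka5, though its value of -0.84 was no smaller in size, and stayed for Mapkapk2 and Mknk2.

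The following lists gave 1 call each, beside 5.01% of all genes. Of 12 tested transcription factors that MAP kinases act on, 1 was called, Srf, serum response factor, at 52.81 and 54.28 CPM in sham and at 76.54 and 69.97 CPM in TAC (0.45 ± 0.08, edgeR adjusted p = 0.0278). Of 7 tested phosphatases of MAP kinases outside the dual-specificity family, 1 was called, Ppp2ca, a catalytic subunit of protein phosphatase PP2A, with a difference of 0.35 ± 0.07 on the log2 scale (edgeR adjusted p = 0.0415). Of 11 scaffolds and adaptors, 1 was called, Gab1, a docking protein of receptor tyrosine kinases, with a difference of -0.37 ± 0.08 on the log2 scale (edgeR adjusted p = 0.0496). Without TAC 1 these 3 genes lost their calls, with values of 0.386, 0.305 and -0.335. That fit holds 1 TAC library, so a call can be lost where the difference stays of similar size.

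**Figure D5:**
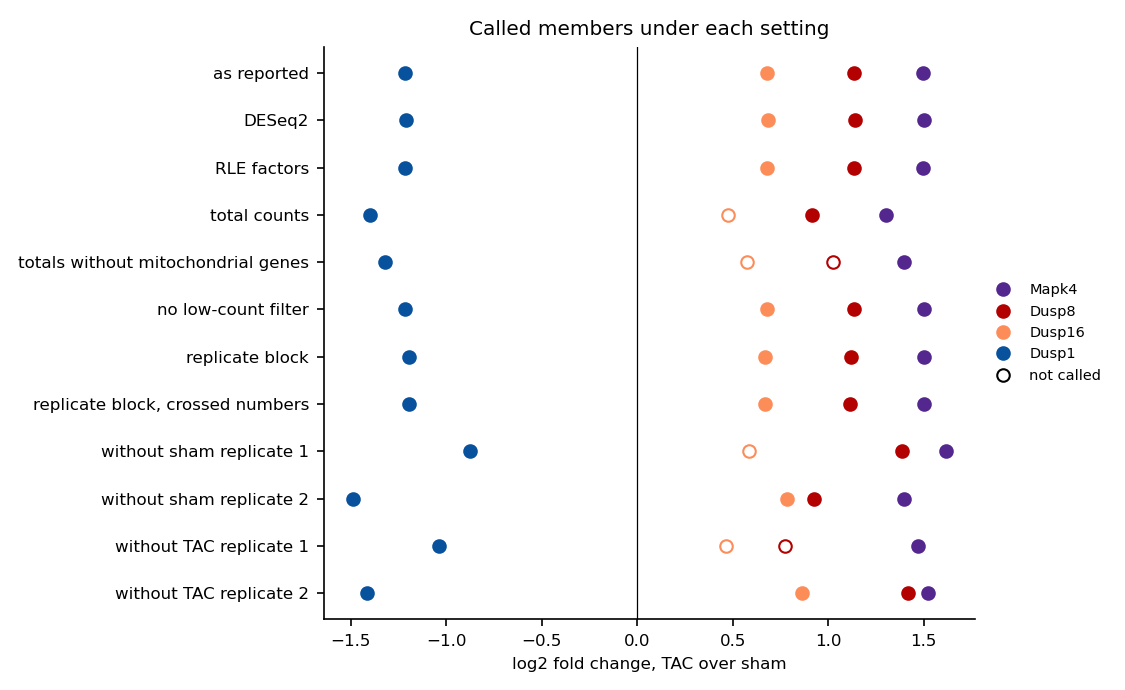
Log2 fold change of the 4 called genes as reported and under 11 alternatives, with filled points where the gene was called at an adjusted p under 0.05 and open points where it was not. Mapk4 and Dusp1 are filled in all rows, Dusp8 is open in 2 and Dusp16 in 4, and no point crosses 0.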

How the data were processed

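RNA-seq of cardiomyocytes was analysed from 2 sham and 2 TAC libraries, each from 1 mouse, grouped by sample title. The submitters' processing notes name Bowtie2 2.2.8, StringTie 1.3.1 and mm10. The counting program, annotation and strand setting were not found in the sources used here. The deposited tables hold an expected count and an FPKM per gene. Expected counts, which the authors did not normalize and of which 6 of the 68 genes had non-whole values, were rounded before testing. The deposited FPKM were used for levels per length and as an alternative.

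Genes passing filterByExpr were scaled by TMM factors (0.868 to 1.097) and tested with the quasi-likelihood test of edgeR 4.0.16 in R 4.3.3, TAC against sham, with no block. Benjamini-Hochberg adjustment ran over 12499 genes, and an adjusted p under 0.05 was called. The SE is the log2 fold change divided by the square root of F. The study scaled by total counts and used a t-test on its own values; total counts were run as an alternative, with DESeq2 1.42.0, RLE factors, totals without mitochondrial genes, no low-count filter, a replicate block and each library left out. On simulated data the edgeR step called 81% of genes changed by 1 on the log2 scale and 97% of those changed by 2 (100 each). The changed genes were drawn from those with a mean over 1 CPM. Dispersions were those fitted to these data, and no library deviated as a whole. The rates do not cover thinly counted genes. Depth was 24237777 to 32118323 counts per library, and precision rests on 2 mice per group.

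Replicate counts differed beyond sampling noise (chi-square per degree of freedom 8.08 for sham and 26.7 for TAC), so neither pair was 1 library deposited as 2. Named were all called genes, the conventional MAP kinases, the MAP2 kinases, the typical phosphatases, and the 5 highest and 5 lowest of the other tested members, and in the pathway lists only called genes. Other genes given with values, such as Dusp3, Dusp27 and Map3k20, were added after their values were seen. The values of 1 named kinase are not reported here, though it is included in counts and sums. The members and lists were chosen with earlier results of these data known. Gene positions and exon overlaps are from GENCODE vM21 (mm10), and promoters from RefSeq (GRCm38.p6).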

Additional observations from a re-analysis of the deposited data

How the results depend on the processing

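Of the comparisons of single genes with a tested alternative, 362 did not cross the threshold, 11 gained a call and 6 lost one, and no called value changed sign. Uncalled values did change sign, in 6 of 35 named genes with total counts, and Map3k8 went from -0.594 to 0.291 without sham 1. DESeq2 gave no adjusted p for 6 of the named genes. The number of kinases called, 1 as reported, was 3 with no low-count filter and 3 at an adjusted p under 0.1. Over all genes the share called was 5.01% as reported, and 10.5% and 14.5% at these settings. The number of kinases called also depended on which library was left out. For phosphatases the count of 3 became 1 with totals without mitochondrial genes, where 5.1% of all genes were called. It became 5 with no low-count filter, where 10.5% of all genes were called. The count of phosphatases also depended on which library was left out. The kinase median of 0.003 was -0.183 with total counts, -0.098 with totals without mitochondrial genes and -0.193 with deposited FPKM. The phosphatase median of -0.01 was -0.207, -0.111 and -0.223. The median of all genes moved with them, to -0.197, -0.108 and -0.195. With each library left out the kinase median was -0.056 to 0.065, the phosphatase median -0.074 to 0.106 and their difference -0.064 to 0.041, so that the sign of the difference was not stable. The genes gained with no low-count filter were Dusp6, Dusp7, Map2k2 and Map3k12. For all of these moves the cause was not tested.

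Deviations of libraries with the same replicate number correlated at -0.264, so no pairing by number was seen. With 2 libraries per group this is 1 correlation, and it cannot exclude pairing. The study's methods speak of pairs of sham and TAC mice without saying how they were matched. With the replicate block 1 kinase and 3 phosphatases were called, the medians were 0.005 and -0.014, and 566 genes were called in all. With the numbers crossed, a pairing chosen after seeing the data, 3 kinases, 4 phosphatases and 2131 genes were called. Leaving out TAC 1 for the called genes of the pathway lists was also chosen after seeing the data. The other alternatives, among them the other scalings, were not examined for the pathway lists.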
